A study of Rattus norvegicus with 12 samples.

Results

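Collagens, the matrix metalloproteinases that cut them and the tissue inhibitors that block those enzymes were followed as 1 set of genes in whole rat lung, after heart failure surgery or sham surgery, with and without ketotifen. The members were all probe sets (groups of short probes for the same transcript) whose platform symbol was Col, number, a, number, or Mmp with a number other than Mmp8, Mmp9 and Mmp12, or Timp with a number. This rule found 86 probe sets for 59 genes among the 31099 of the table. Of these, 52 probe sets for 35 genes reached a log2 value of 4 in at least 3 of the 12 arrays, and they were tested together with all 16536 probe sets that passed the same filter. The set kept 34 of 58 collagen probe sets (24 of 41 genes), 11 of 20 Mmp probe sets (8 of 14 genes) and 7 of 8 Timp probe sets (3 of 4 genes).

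The lungs came from age-matched male Sprague-Dawley rats, 3 per group in 4 groups, and each lung was hybridized to 1 Affymetrix rat genome array. In the CHF groups (congestive heart failure) a clip had been placed on the aorta above the coronary arteries while the rats were juvenile, which overloads the left heart, and sham rats had the operation without the clip. Ketotifen, which stabilizes mast cells, was given to 1 arm of CHF rats and 1 arm of sham rats through the drinking water from day 1 after surgery (1 mg per kg daily). The arms without it are named placebo by the labels, while the design text calls the CHF rats among them untreated. All lungs were taken 9 weeks after surgery. They are whole lungs, with every cell type and vessel in 1 extract, so fewer cells of a type and less RNA per cell cannot be told apart.

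Collagens are the main structural proteins of the extracellular matrix. Fibrillar collagens form the tensile fibres around airways and vessels, type IV collagens form the sheet of the basement membrane under epithelium and endothelium, and collagens XV and XVIII tie that sheet to the tissue around it. Matrix metalloproteinases are zinc enzymes that cut collagens and other proteins outside the cell, some secreted and some held in the cell membrane. Timps bind their active site and block it, and the membrane enzyme Mmp14 activates secreted pro-Mmp2 in a complex that includes Timp2.

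In this set a few genes moved and most did not pass the test. With ketotifen, CHF lungs had more RNA than sham lungs for the inhibitor Timp1 (7.13-fold), the basement membrane collagen Col15a1 (8.39-fold and 5.20-fold by its probe sets) and the membrane protease Mmp14 (2.16-fold), and less for the collagen VI chain gene Col6a5 (3.72-fold). Among CHF lungs, those given ketotifen had more Timp1 (3.22-fold) and more of the gelatinase gene Mmp2 (1.81-fold) than placebo lungs. No fibrillar or type IV collagen passed in any of the 6 comparisons made. Adjusted p-values are from limma, Benjamini-Hochberg adjusted over all 16536 probe sets, errors marked SE are those of that fit, and a gene is said to have risen or fallen only at an adjusted p under 0.05.

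Some lungs stood apart from their groups. Genes of heart muscle were high in sham placebo lung 3 and sham ketotifen lungs 1 and 2 (means of 7 markers of 8.29, 6.40 and 9.46, against 2.71 to 3.02 in the other 9 lungs). Among the 7, Myh6, Myl4, Myl7, Tnnc1 and Tnni3 reached 4 in these 3 lungs alone, so they passed the filter by being high there. Tnnt2 and Mybpc3 reached 4 in further lungs and were also highest in these 3. Of the 10 heart muscle markers on the array, Myl3 (2.39 to 2.47), Nppa (2.07 to 2.95) and Ryr2 did not pass the filter. Ryr2 read 4.99 in sham placebo lung 3, 6.39 in sham ketotifen lung 2 and 2.45 in sham ketotifen lung 1. The gap between the 3' and 5' probe sets for beta-actin, a control that widens as RNA is shortened, was largest in sham placebo lungs 2 and 3 and sham ketotifen lung 2 (4.23, 3.90 and 4.52, against 2.90 to 3.45 elsewhere). CHF placebo lung 1 lay on the side of the CHF ketotifen lungs, beyond placebo lungs 2 and 3, for 19 of 52 member probe sets (36.5%), and for 43.2% of all probe sets tested. Fibroblast markers, the genes of the cells that make most fibrillar collagen, had group ranges that overlapped in all groups (means of 13 markers from 8.26 to 9.03). In any comparison 0 of 13 passed, where from 0.0847% to 21% of all probe sets were called. Single markers went both ways. With ketotifen, Cthrc1 and Aspn were higher and Dcn lower in all CHF than in all sham lungs, and 40.1% of all probe sets did not overlap there. Macrophage markers did move with surgery: 9 of 12 rose in the average over both arms, where 11% of all probe sets were called higher. Their mean was 7.23 to 8.69 in sham placebo, 8.94 to 9.90 in CHF placebo, 8.24 to 8.50 in sham ketotifen and 9.79 to 10.17 in CHF ketotifen lungs. The highest CHF placebo value, 9.90, was that of lung 1. Airway markers moved the other way: 4 of 7 ciliated cell markers and 3 of 6 club cell markers fell on average (medians of -1.61 and -1.63). Of all probe sets 9.92% were called lower there. In the placebo arm both list means overlapped between CHF and sham, and in the ketotifen arm neither did. Sham placebo lung 1 (ciliated 5.79, club 7.49) was below CHF placebo lung 1 (5.96 and 8.13). Sham placebo lung 2 had the highest ciliated and smooth muscle means (9.12 and 10.41). Of 4 neutrophil markers, Il1r2 was called higher with ketotifen in CHF (2.62, adjusted p = 0.000517). It read 5.66, 4.62 and 5.54 in the CHF ketotifen lungs and 2.28 to 2.72 in the other 9 lungs. Il1r2 thus passed the filter through the CHF ketotifen lungs alone and had to differ, and the list median of 2.19 includes it. The mean of the 4 markers was 5.20 to 7.38 in CHF placebo and 7.17 to 8.60 in CHF ketotifen lungs. CHF ketotifen lungs 1 and 3 were closer to each other (r = 0.993 over all probe sets tested) than any other 2 lungs of a group (0.929 to 0.981).

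**Figure D1:**
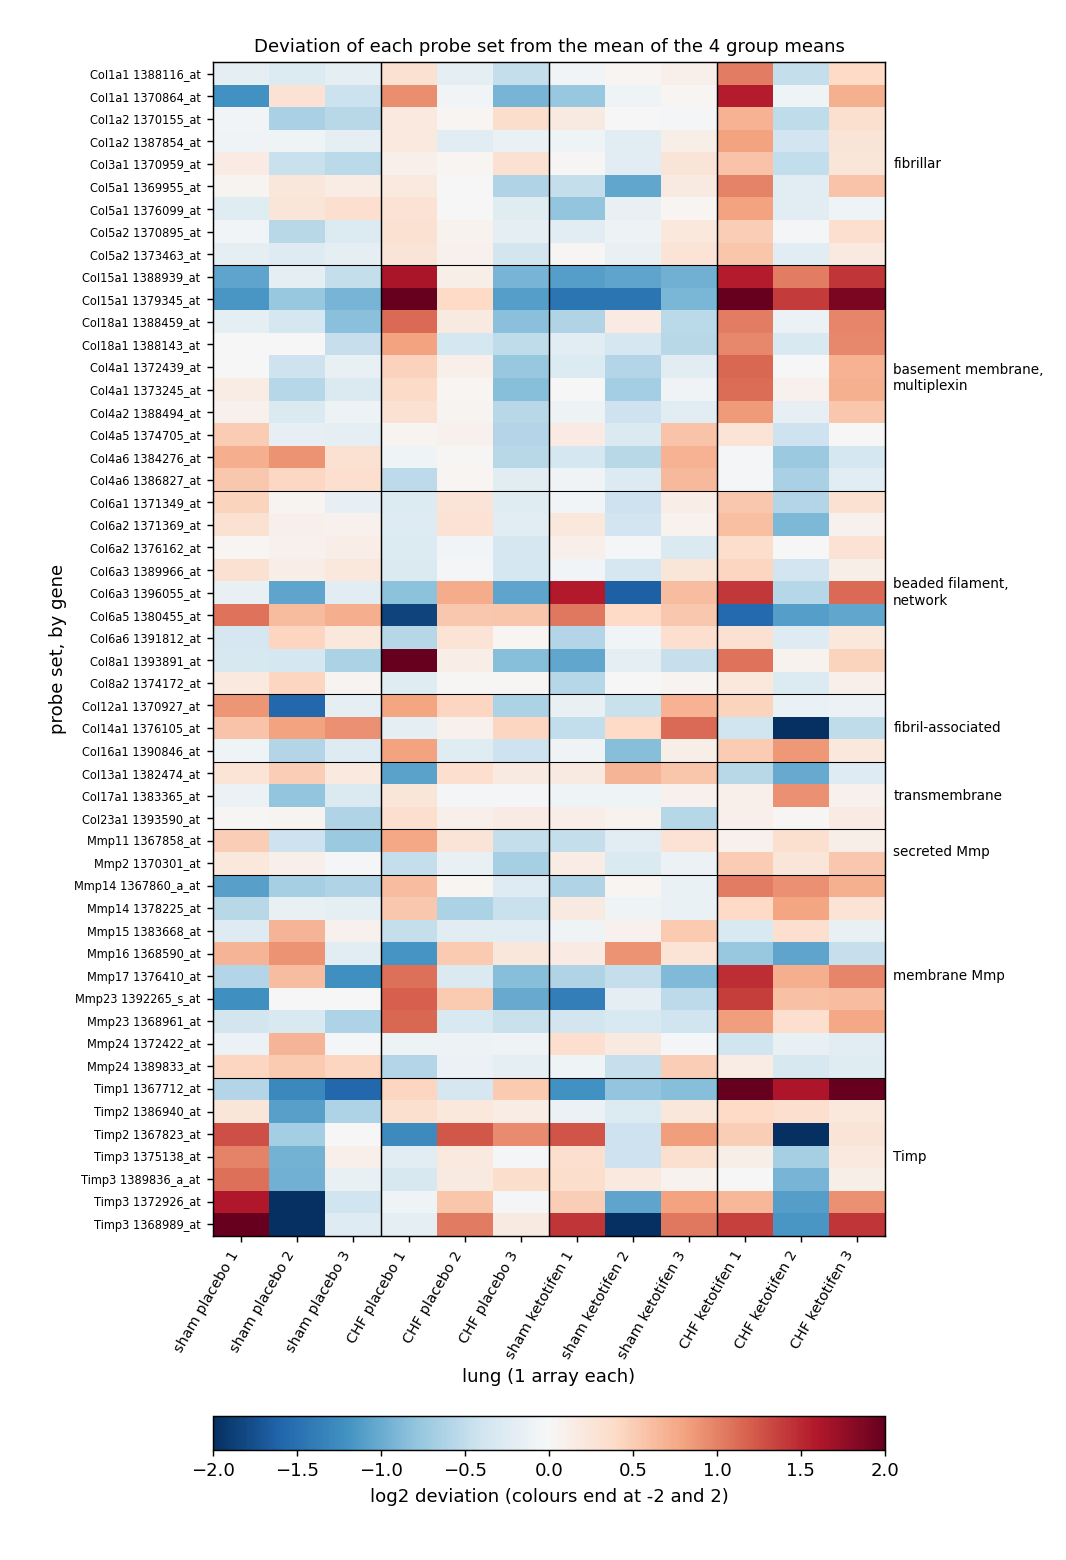
Deviation of each of the 52 probe sets (vertical axis, by gene and role) in each of the 12 lungs (horizontal axis) from the mean of its 4 group means, on the log2 scale, with colours ending at -2 and 2. The strips of Timp1 and Col15a1 are dark red in the 3 CHF ketotifen lungs, and the strip of Col6a5 is blue there and in CHF placebo lung 1.

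Fibrillar collagens, the genes of the tensile fibres, were measured by 9 probe sets for 5 genes (Col1a1, Col1a2, Col3a1, Col5a1 and Col5a2). Averaged over both drug arms, CHF minus sham was above 0 for 9 of 9 probe sets, with a median of 0.25 on the log2 scale, and 0 of 9 passed the test, which 21% of all probe sets did. The median of all 52 members was 0.27 in this average and that of all probe sets tested was -0.016.

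Col1a1, which encodes the main chain of type I collagen, gave by its brighter probe set (1388116_at) values of 9.22, 9.13 and 9.21 in sham placebo, 9.72, 9.23 and 8.94 in CHF placebo, 9.35, 9.45 and 9.52 in sham ketotifen and 10.43, 8.94 and 9.81 in CHF ketotifen lungs. The sham lungs lay close together and the CHF lungs spread to both sides of them, so the groups overlapped in both arms. The averaged surgery difference was 0.20 ± 0.22 (SE; adjusted p = 0.535). The dimmer Col1a1 probe set (1370864_at) gave a larger average of 0.72 ± 0.38 (SE; adjusted p = 0.19), with 1.00 (adjusted p = 0.229) in the ketotifen arm against 0.28 by the brighter one. Col1a2, the partner chain of Col1a1 (1370155_at), was 11.93, 11.33 and 11.43 in sham placebo, 12.17, 12.02 and 12.34 in CHF placebo, 12.17, 11.98 and 11.95 in sham ketotifen and 12.67, 11.48 and 12.29 in CHF ketotifen lungs. By this probe set all 3 CHF placebo lungs were above all 3 sham placebo lungs, while the ketotifen groups overlapped. The dimmer Col1a2 probe set (1387854_at) overlapped in both arms. Its placebo difference was 0.069, against 0.61 by the brighter one, and its average was 0.18. The averaged difference of the brighter one was 0.36 ± 0.18 (SE, adjusted p = 0.174), or 0.17 without the 3 lungs of largest beta-actin difference. For Col3a1, the type III collagen of distensible tissue (1370959_at), sham placebo lungs had 13.22, 12.62 and 12.52, CHF placebo lungs 13.17, 13.10 and 13.38, sham ketotifen lungs 13.09, 12.84 and 13.33, and CHF ketotifen lungs 13.63, 12.57 and 13.30. CHF and sham lungs overlapped in both arms, and the averaged difference of 0.25 ± 0.19 (SE; adjusted p = 0.341) was -0.025 without the same lungs. CHF ketotifen lung 2 was the lowest of its group for all 3 genes, and the mean of the 5 fibrillar genes was 10.29 in it against 11.39 and 11.00 in lungs 1 and 3.

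The basement membrane and multiplexin collagens were 6 genes with 10 probe sets, and Col15a1 was the gene of this role that rose. Col15a1 encodes collagen XV, a proteoglycan that anchors basement membranes, those of vessels included. Its brighter probe set (1388939_at) gave 7.55, 8.43 and 8.13 in sham placebo, 10.24, 8.72 and 7.69 in CHF placebo, 7.51, 7.56 and 7.65 in sham ketotifen and 10.18, 9.64 and 10.04 in CHF ketotifen lungs. All CHF ketotifen lungs were far above all sham ketotifen lungs, and the CHF placebo lungs ran from the sham level (lung 3) to the level of the drug group (lung 1). The surgery difference was 2.38 ± 0.49 (SE; adjusted p = 0.0151) with ketotifen, 0.85 ± 0.49 (adjusted p = 0.362) with placebo, and 1.61 ± 0.35 (adjusted p = 0.0125) on average.

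The dimmer Col15a1 probe set (1379345_at) repeated this order of lungs. It read 6.08, 6.49 and 6.31 in sham placebo, 9.29, 7.64 and 6.15 in CHF placebo, 5.78, 5.79 and 6.32 in sham ketotifen and 9.32, 8.64 and 9.12 in CHF ketotifen lungs. Again the ketotifen groups were apart and CHF placebo lung 1 stood with the CHF ketotifen lungs. The difference was 3.07 ± 0.59 (SE; adjusted p = 0.0115) with ketotifen and 1.40 ± 0.59 (adjusted p = 0.219) with placebo. Without CHF placebo lung 1 the placebo difference was 0.60, and the drug difference within CHF went from 1.34 (adjusted p = 0.276) to 2.13 (adjusted p = 0.0126). As this lung was picked for lying with the CHF ketotifen lungs, leaving it out had to enlarge the drug difference. Without the 3 lungs with heart muscle signal, which leaves 1 sham ketotifen lung, the ketotifen-arm difference was 2.71 with an adjusted p of 0.257.

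Col4a1 and Col4a2 encode the chains of the basic type IV network. Their genes lie head to head on chromosome 16 with start sites 77 bases apart, so that 1 short stretch serves as promoter for both. The bases common to the promoter windows of both genes (250 before to 50 after each start) are shown because both genes start within them, in the GRCr8 build of RefSeq, chr16:84885471-84885646, plus strand, 176 bases, 5' to 3'. Capitals mark GC boxes (GGGCGG on either strand) and a CCAAT box on the minus strand (ATTGG as read here).

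Col4a1-Col4a2 shared: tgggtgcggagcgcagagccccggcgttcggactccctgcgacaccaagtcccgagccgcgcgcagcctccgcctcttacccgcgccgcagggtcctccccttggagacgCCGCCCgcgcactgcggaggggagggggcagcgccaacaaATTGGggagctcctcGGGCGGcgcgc

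The GC box letters occurred in 33.1% and the CCAAT letters in 37.5% of the 33469 full RefSeq promoter windows (250 bases before to 50 after a start), so neither is rare in such windows. The shared stretch of 176 bases is shorter, and shares for that length were not computed. Col4a1 (1372439_at) was 11.14, 10.74 and 11.01 in sham placebo, 11.62, 11.26 and 10.39 in CHF placebo, 10.88, 10.57 and 10.94 in sham ketotifen and 12.30, 11.14 and 11.84 in CHF ketotifen lungs. Col4a2 (1388494_at) read 10.34, 9.97 and 10.16 in sham placebo, 10.56, 10.32 and 9.70 in CHF placebo, 10.15, 9.84 and 10.04 in sham ketotifen and 11.10, 10.09 and 10.80 in CHF ketotifen lungs. Both genes were highest in CHF ketotifen lungs 1 and 3 and lowest in CHF placebo lung 3. For Col4a1 the ketotifen groups did not overlap, by a margin of 0.96 ± 0.33 between the means (SE; adjusted p = 0.0726), and for Col4a2 the difference was 0.65 ± 0.27 (SE; adjusted p = 0.122) with overlap. Averaged over both arms the differences were 0.55 ± 0.23 and 0.34 ± 0.19 (adjusted p = 0.109 and 0.202).

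The other type IV chains gave different values. Col4a6, a chain of a smooth muscle and epithelial type IV network, had the largest negative difference of any member for ketotifen against placebo in sham rats. By probe set 1384276_at it was 7.33, 7.49 and 6.90 in sham placebo, 6.51, 6.63 and 6.05 in CHF placebo, 6.25, 6.05 and 7.30 in sham ketotifen and 6.57, 5.86 and 6.25 in CHF ketotifen lungs. All CHF placebo lungs were below all sham placebo lungs, and sham ketotifen lung 3 lay inside the sham placebo range. The drug difference in sham rats was -0.71 ± 0.33 (SE; adjusted p = 0.363), or -0.11 without the 3 lungs with heart muscle signal, and the surgery difference was -0.85 ± 0.33 (adjusted p = 0.193) with placebo. Col18a1, the other multiplexin, differed by 0.78 and 0.53 in the average over arms by its 2 probe sets, neither of which passed. Its dimmer probe set (1388143_at) entered the set through 3 lungs, CHF placebo lung 1 and CHF ketotifen lungs 1 and 3, so it had to differ with surgery.

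Among the beaded filament and network collagens, 7 genes with 9 probe sets, 1 gene fell. Col6a5 encodes a chain of collagen VI, which forms microfibrils next to basement membranes (1380455_at). It was 9.88, 9.43 and 9.53 in sham placebo, 6.94, 9.34 and 9.35 in CHF placebo, 9.86, 9.19 and 9.33 in sham ketotifen and 7.25, 7.70 and 7.75 in CHF ketotifen lungs. The 3 CHF ketotifen lungs and CHF placebo lung 1 were low, while CHF placebo lungs 2 and 3 lay just under the sham placebo lungs. The difference was -1.90 ± 0.52 (SE; adjusted p = 0.0391) with ketotifen, -1.07 ± 0.52 (adjusted p = 0.282) with placebo and -1.48 ± 0.37 (adjusted p = 0.0207) on average. The ketotifen-arm call was lost without sham placebo lung 3 or any 1 of the 6 ketotifen lungs (adjusted p up to 0.106). Without CHF placebo lung 1 the placebo difference was -0.27 and the interaction -1.63 (adjusted p = 0.0307, against 0.713 with all lungs). This lung was singled out after its values were seen. Leaving out a lung that lay with the CHF ketotifen lungs had to widen the difference between the arms, so this is not a separate test.

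The common collagen VI chains did not share this drop in the average over arms. With placebo, the brighter Col6a3 probe set (1389966_at, -0.44) and the dimmer Col6a2 probe set (1376162_at, -0.31) were lower in CHF without overlap. Neither passed, and 23.4% of all probe sets did not overlap there. With ketotifen their differences were 0.10 and 0.29. Col6a1, Col6a2 and Col6a3, which form the basic collagen VI molecule, and Col6a6 had averaged differences from -0.17 to 0.28 over 6 probe sets, none of which passed. A dim Col6a3 probe set (1396055_at) varied widely among sham lungs, with 4.41, 3.51 and 4.34 in sham placebo and 6.15, 2.92 and 5.17 in sham ketotifen lungs. It read 3.73, 5.30 and 3.51 in CHF placebo and 5.97, 3.99 and 5.69 in CHF ketotifen lungs. Its drug difference in sham rats of 0.66 ± 0.80 (SE; adjusted p = 0.75) turned to -0.042 without sham ketotifen lung 1. Col8a1, a short-chain collagen of vessel walls, had an averaged difference of 1.00 (adjusted p = 0.108), with its highest value in CHF placebo lung 1.

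Transmembrane collagens span the cell membrane, and fibril-associated collagens sit on the surface of fibrils. Of the 3 transmembrane genes, Col13a1, a collagen of cell adhesion sites (1382474_at), fell in the average over arms. It was 10.22, 10.44 and 10.14 in sham placebo, 8.87, 10.28 and 10.13 in CHF placebo, 10.13, 10.62 and 10.50 in sham ketotifen and 9.38, 8.93 and 9.68 in CHF ketotifen lungs. All CHF ketotifen lungs were below all sham ketotifen lungs, and in the placebo arm lung 1 alone was far below the sham lungs. The average was -0.79 ± 0.23 (SE; adjusted p = 0.0348), with -1.09 (adjusted p = 0.0522) in the ketotifen arm and -0.50 (adjusted p = 0.415) in the placebo arm. The call was lost without sham placebo lung 2 or 3, sham ketotifen lung 2 or 3, or CHF ketotifen lung 1 or 2 (adjusted p up to 0.0776). Of the 3 fibril-associated genes 0 passed, and the largest averaged difference was that of Col14a1 at -1.10 ± 0.40 (SE; adjusted p = 0.0714), with CHF ketotifen lung 2 at 3.53 against 5.76 to 7.40 in the other lungs.

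**Figure D2:**
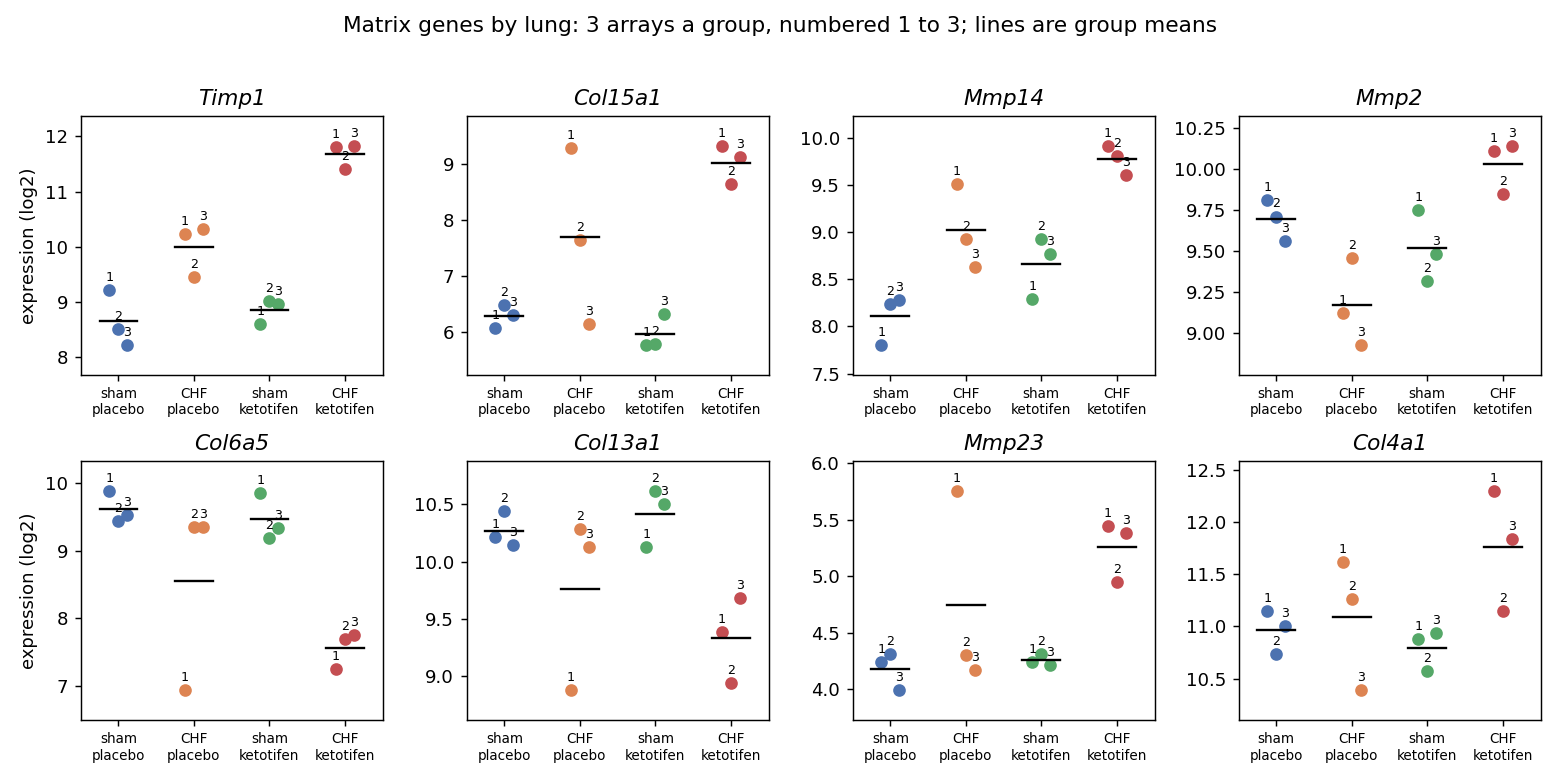
Log2 expression (vertical axes) of 8 member probe sets in the 4 groups (horizontal axes), with 1 point per lung numbered 1 to 3 and a line at each group mean; Col15a1 is probe set 1379345_at. CHF ketotifen lungs stand apart from sham ketotifen lungs in all 8 panels. CHF placebo lung 1 lies among or beyond the CHF ketotifen lungs for Col15a1, Col6a5, Col13a1, Mmp23 and Col4a1.

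Of the secreted metalloproteinases, 2 of 8 genes on the array passed the filter, Mmp2 and Mmp11. Mmp3, Mmp7, Mmp10 and Mmp13, the secreted stromelysins, matrilysin and collagenase, and Mmp28 read between 2.11 and 3.11 in all 12 lungs, near the background of the array. Mmp2 encodes gelatinase A, which cuts denatured collagen and type IV collagen (1370301_at). It was 9.81, 9.71 and 9.56 in sham placebo, 9.12, 9.46 and 8.93 in CHF placebo, 9.75, 9.32 and 9.48 in sham ketotifen and 10.11, 9.84 and 10.14 in CHF ketotifen lungs. With placebo all CHF lungs were below all sham lungs, and with ketotifen all CHF lungs were above all sham lungs. A further Mmp2 probe set (1369825_at) was not kept and read 1.90 to 2.01 in all 12 lungs.

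Mmp2 rose with ketotifen in CHF rats, by 0.86 ± 0.16 (SE; adjusted p = 0.0331). The surgery difference was -0.52 ± 0.16 (adjusted p = 0.14) with placebo and 0.51 ± 0.16 (adjusted p = 0.0618) with ketotifen, and neither passed. The test of the difference between them, the interaction, gave 1.03 ± 0.23 (SE; unadjusted p = 0.000976, adjusted p = 0.12). Non-overlap in opposite directions in both arms occurred for 110 of 16536 probe sets (0.665%) and for no other member. The call for ketotifen was lost without sham placebo lung 3, CHF placebo lung 3, sham ketotifen lung 3, CHF ketotifen lung 1 or CHF ketotifen lung 3; over all single lungs left out the difference lay between 0.74 and 1.00, with adjusted p up to 0.149.

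All 6 membrane-bound metalloproteinase genes on the array passed the filter, with 9 probe sets. Mmp14, the membrane collagenase that also activates pro-Mmp2 (1367860_a_at), was 7.80, 8.24 and 8.28 in sham placebo, 9.51, 8.93 and 8.63 in CHF placebo, 8.29, 8.93 and 8.77 in sham ketotifen and 9.92, 9.81 and 9.60 in CHF ketotifen lungs. CHF lungs were above sham lungs without overlap in both arms. The difference was 0.91 ± 0.24 (SE; adjusted p = 0.114) with placebo, 1.11 ± 0.24 (adjusted p = 0.0169) with ketotifen and 1.01 ± 0.17 (adjusted p = 0.00595) on average. The ketotifen-arm call was lost without sham ketotifen lung 1 or CHF ketotifen lung 1 or 2 (adjusted p up to 0.0569). The dimmer probe set (1378225_at) gave an average of 0.31 ± 0.20 (adjusted p = 0.276).

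Mmp23, a membrane-anchored enzyme that is released on activation, rose in the average by 1 of its 2 kept probe sets (1368961_at). It read 4.25, 4.31 and 3.99 in sham placebo, 5.75, 4.30 and 4.17 in CHF placebo, 4.24, 4.31 and 4.22 in sham ketotifen and 5.44, 4.95 and 5.38 in CHF ketotifen lungs. Sham lungs lay near the filter's minimum, and the high lungs were the CHF ketotifen lungs and CHF placebo lung 1. The average was 0.78 ± 0.25 (SE; adjusted p = 0.0466), and the other probe set (1392265_s_at) gave 1.10 ± 0.39 (adjusted p = 0.0651). The call was lost without any 1 of the 6 sham or 3 CHF ketotifen lungs (adjusted p up to 0.101). The remaining membrane enzymes split: Mmp17 had an average of 1.05 (adjusted p = 0.0643), and Mmp15, Mmp16 and Mmp24 had averages from -0.90 to -0.34, with 0 of their 4 probe sets passing.

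Timp1, a soluble inhibitor of most metalloproteinases, had the smallest adjusted p-value of all members for surgery in either arm and on average. Its promoter window is printed because AP-1 and ETS factors are known to act on the Timp1 promoter through neighbouring sites. It lies at chrX:3771073-3771372 in the GRCr8 build of RefSeq, minus strand, and is read 5' to 3', 300 bases. Capitals mark TGAGTAA, a variant of the AP-1 site, CAGGAAG, a form of the ETS site that occurs in 2 places, and a GC box on the opposite strand (CCGCCC as read here).

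Timp1: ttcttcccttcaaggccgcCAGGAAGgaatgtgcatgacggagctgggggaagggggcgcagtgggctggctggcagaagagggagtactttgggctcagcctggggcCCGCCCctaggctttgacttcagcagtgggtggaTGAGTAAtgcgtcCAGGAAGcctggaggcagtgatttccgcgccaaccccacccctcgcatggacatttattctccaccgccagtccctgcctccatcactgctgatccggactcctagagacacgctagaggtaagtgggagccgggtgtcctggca

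TGAGTAA on either strand was found in 2.9% and CAGGAAG in 12.5% of the 33469 windows, and each in 1 of the 26 member genes with a window, which was Timp1. The letters were searched after the gene was known to move, and a match is not a measured site. The AP-1 consensus TGANTCA, present in 7.33% of windows, was found for Col6a1 among the members.

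In the arrays Timp1 (1367712_at) was 9.21, 8.51 and 8.22 in sham placebo, 10.22, 9.45 and 10.32 in CHF placebo, 8.59, 9.01 and 8.95 in sham ketotifen and 11.80, 11.42 and 11.83 in CHF ketotifen lungs. CHF lungs were above sham lungs without overlap in both arms, and CHF ketotifen lungs were above CHF placebo lungs without overlap. The surgery difference was 1.35 ± 0.28 (SE; adjusted p = 0.0824) with placebo, 2.83 ± 0.28 (adjusted p = 0.000453) with ketotifen and 2.09 ± 0.20 (adjusted p = 0.00059) on average, or 4.26-fold. Within CHF the ketotifen difference was 1.69 ± 0.28 (adjusted p = 0.0157), while in sham rats it was 0.20 ± 0.28 (adjusted p = 0.784). The interaction of 1.48 ± 0.40 (SE; adjusted p = 0.201) did not pass, so the surgery effects in the 2 arms were not shown to differ. Without the 3 lungs of largest beta-actin difference, which leaves 1 sham placebo lung, the placebo difference was 0.78 (adjusted p = 0.879), the ketotifen difference 2.91 (adjusted p = 0.00411) and the interaction 2.13 (adjusted p = 0.339).

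For Timp1, CHF placebo lung 1 lay between lungs 2 and 3, while for Col15a1 it was above both. Both genes kept their surgery calls, with ketotifen and on average, in all 12 fits with 1 lung left out. The Timp1 call for ketotifen in CHF was lost without CHF placebo lung 2, CHF ketotifen lung 1 or CHF ketotifen lung 3 (differences from 1.41 to 1.85 over all single lungs left out). Timp1 RNA is also made by macrophages and other immune cells, and macrophage markers, like Timp1, were higher in CHF than in sham lungs. The part of the macrophage, neutrophil and airway cells in the Timp1, Mmp2, Mmp14 and Col15a1 results was not tested.

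Timp2 and Timp3 showed no passing difference, and their probe sets disagreed. Timp2, which can either block Mmp2 or help Mmp14 to activate it, gave by its brighter probe set (1386940_at) 12.21, 10.88 and 11.34 in sham placebo, 12.28, 12.18 and 12.11 in CHF placebo, 11.85, 11.69 and 12.20 in sham ketotifen and 12.36, 12.30 and 12.18 in CHF ketotifen lungs. The low lungs were sham placebo lungs 2 and 3 and sham ketotifen lung 2, the 3 of largest beta-actin difference, and the averaged difference was 0.54 ± 0.19 (SE; adjusted p = 0.0636). Without these 3 lungs it was 0.12 (adjusted p = 0.517). The dimmer Timp2 probe set (1367823_at) read 9.38, 7.42 and 8.08 in sham placebo, 6.82, 9.33 and 9.04 in CHF placebo, 9.35, 7.68 and 8.93 in sham ketotifen and 8.59, 4.17 and 8.35 in CHF ketotifen lungs. Its difference of -1.36 ± 1.10 (SE; adjusted p = 0.559) for ketotifen in CHF came with a single value, CHF ketotifen lung 2, and was 0.075 without it.

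Timp3, the inhibitor that stays bound to the matrix, was read by 4 probe sets. The brightest (1375138_at) gave 14.37, 12.43 and 13.48 in sham placebo, 13.15, 13.56 and 13.35 in CHF placebo, 13.72, 12.95 and 13.70 in sham ketotifen and 13.48, 12.71 and 13.57 in CHF ketotifen lungs. All groups overlapped, and the averaged difference was -0.14 ± 0.30 (SE; adjusted p = 0.764), or -0.73 (adjusted p = 0.0934) without the same 3 lungs. The dimmest (1368989_at) ran over a far wider range, with 9.54, 3.03 and 7.11 in sham placebo, 7.19, 8.42 and 7.55 in CHF placebo, 8.80, 4.66 and 8.42 in sham ketotifen and 8.74, 6.22 and 8.80 in CHF ketotifen lungs. Its 2 lowest values were in the lungs with the 2 largest beta-actin differences, sham ketotifen lung 2 and sham placebo lung 2. Its placebo-arm surgery difference of 1.16 ± 1.51 (SE; adjusted p = 0.711) was -0.61 without sham placebo lung 2, and its drug difference in sham rats of 0.73 ± 1.51 (adjusted p = 0.864) was -1.03. The part of RNA length in these values was not tested, and where each probe set lies on the transcript was not used here. Timp4, the heart-rich inhibitor, did not pass the filter and read 2.19, 2.34 and 2.20 in sham placebo, 2.21, 2.20 and 2.22 in CHF placebo, 2.24, 2.22 and 2.21 in sham ketotifen and 2.23, 2.26 and 2.23 in CHF ketotifen lungs. It was at background in the lungs with heart muscle signal too.

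**Figure D3:**
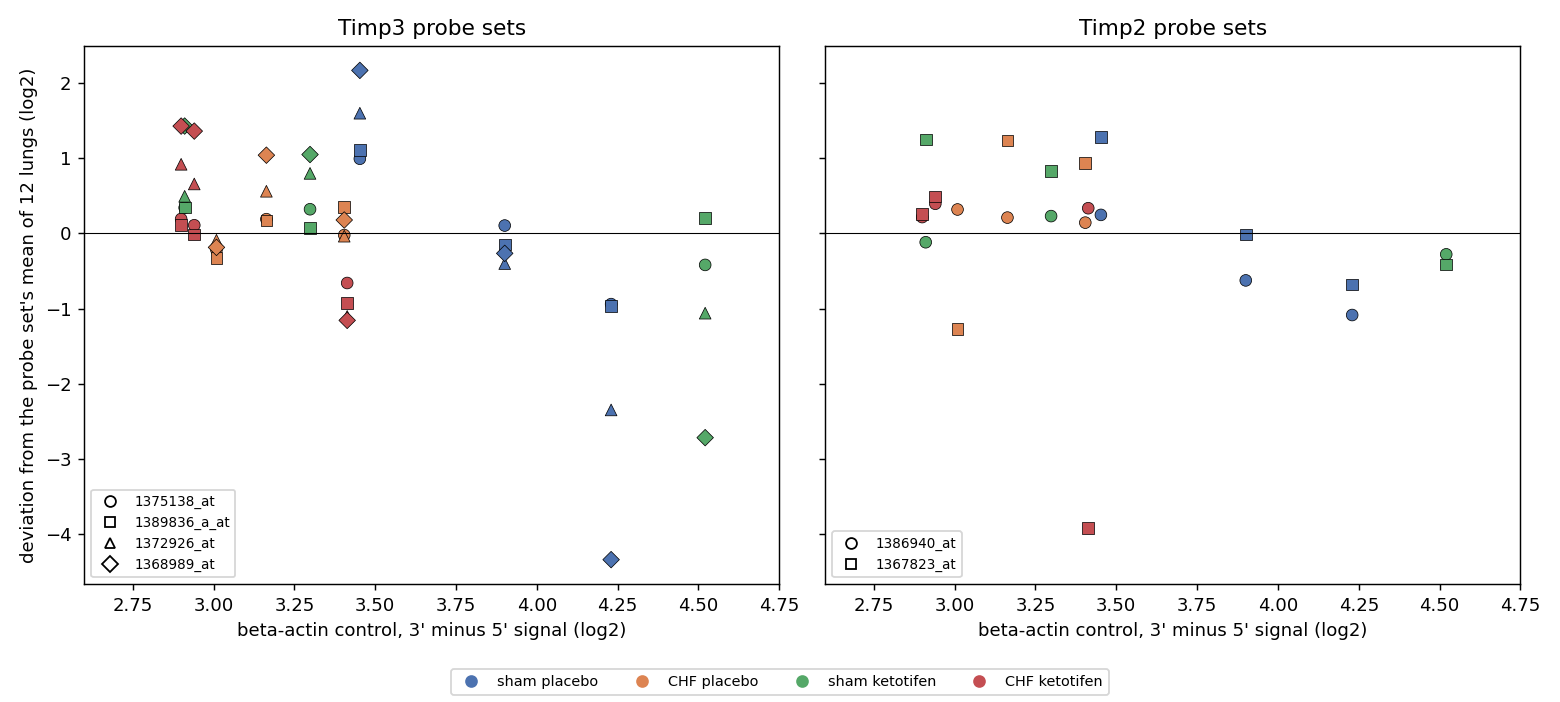
Deviation of each Timp3 (left) and Timp2 (right) probe set from its own mean over the 12 lungs, in log2 units, against the beta-actin control of the same lung (3' minus 5' probe set, also log2); colours give the group and shapes the probe set. The dimmest Timp3 probe set (diamonds) is lowest in the lungs at 4.23 and 4.52, and the dimmer Timp2 probe set (squares) is lowest in CHF ketotifen lung 2, at 3.41.

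Taken by comparison, CHF against sham with placebo called 0 of 52 members, with 0.169% of all probe sets called. At an unadjusted p under 0.05 there were 9 members, against 20.1% of all probe sets, and 14 of 52 members did not overlap between the groups, against 23.4% of all. Ketotifen against placebo in CHF called 2 of 52 (Timp1 and Mmp2, both higher), where 1.22% of all probe sets were called and 0.822% were called higher, and 6 members did not overlap, against 25.4%. CHF against sham with ketotifen called 5 of 52 probe sets (9.62%), where 13% of all were called. Higher were Timp1, Mmp14 and both Col15a1 probe sets (6.36% of all probe sets were called higher) and lower was Col6a5 (6.61% of all), and 17 members did not overlap, against 40.1%. The share of members called there was not above that of the array as a whole. Without the 3 lungs with heart muscle signal 0 members were called in either of these comparisons, and 0.411% and 0.26% of all probe sets. The differences were close to those with all lungs: in the ketotifen arm Timp1 was at 2.73 (from 2.83), Mmp14 at 1.01 (from 1.11) and Col6a5 at -1.77 (from -1.90). Without the 3 of largest beta-actin difference Timp1 was called in both and Mmp14 in the second, beside 0.847% and 5.95% of all.

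Ketotifen against placebo in sham rats called 0 of 52 members, with 0.0847% of all called and 7 members without overlap, against 16.4%. At an unadjusted p under 0.05 it had 1 member, against 14% of all probe sets. The interaction called 0 of 52, with 0.369% of all called, and 4 members had an unadjusted p under 0.05, against 10.8%. The average surgery effect called 7 of 52 probe sets (13.5%), higher for Timp1, Mmp14, Mmp23 and both Col15a1 probe sets and lower for Col6a5 and Col13a1. Of all probe sets 21% were called, 11% higher and 9.92% lower. Leaving out the 3 lungs with heart muscle signal left 1 of these 7 (Timp1, 1.93, adjusted p = 0.0459) and 0.363% of all probe sets, and leaving out the 3 of largest beta-actin difference left 2 (Timp1 and Mmp14) and 1.19% of all; either leaves 1 lung in a sham group, whose spread is then taken from the other groups.

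**Figure D4:**
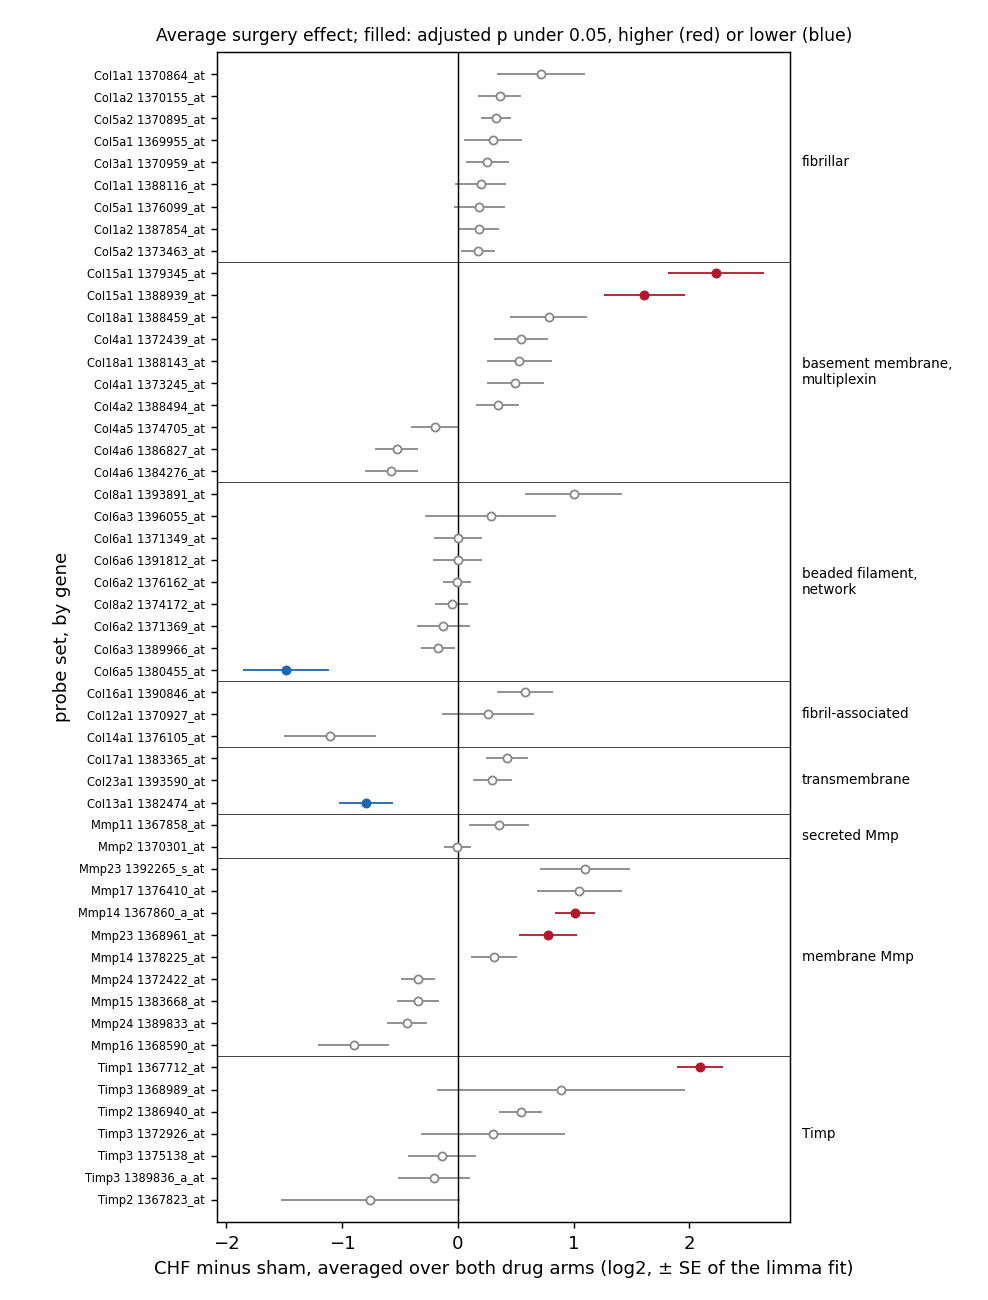
CHF minus sham averaged over both drug arms (horizontal axis, log2, bars ± SE of the limma fit) for the 52 probe sets (vertical axis, by role); filled points passed at an adjusted p under 0.05. All 9 fibrillar probe sets lie to the right of 0 without passing, and the filled points are Timp1, Mmp14, Mmp23 and Col15a1 to the right and Col6a5 and Col13a1 to the left.

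The arms use different lungs, so their surgery differences can be set side by side. They had the same sign for 42 of 52 members (80.8%), against 70.2% of all probe sets, and were larger in size with ketotifen for 30 members (57.7%), against 59.3%. The members thus had larger differences in the ketotifen arm about as often as the array did. Without CHF placebo lung 1, ketotifen against placebo in CHF called 9 members (17.3%), and 7.37% of all probe sets in the same fit, up from 1.22%. CHF against sham with ketotifen called 10 members (19.2%) and 16.8% of all. The interaction then called 3, both Col15a1 probe sets and Col6a5 (5.77%), and 1.83% of all. These counts follow a lung chosen after its values were seen, so they are not a separate test of the drug.

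**Figure D5:**
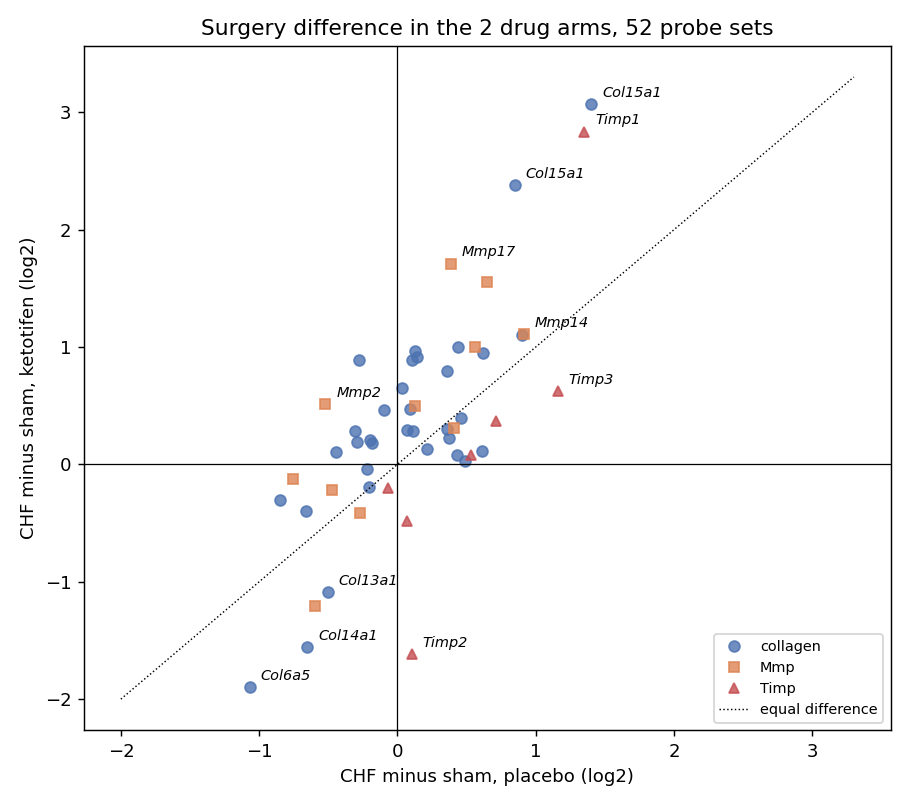
Surgery difference (CHF minus sham, log2) with placebo (horizontal axis) and with ketotifen (vertical axis) for the 52 member probe sets, with a dotted line of equal difference. Col15a1 and Timp1 lie above the line at the upper right, Col6a5 lies at the lower left, and Mmp2 lies at -0.52 and 0.51, at the upper left.

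Genes that build, cross-link and take up collagen were counted beside the members. In the average surgery effect 21% of all probe sets were called, 11% higher and 9.92% lower. The share called among 23 genes of collagen synthesis and cross-linking that passed the filter was near the 21%. All of those calls were higher, as 5 rose and 0 fell. They were Loxl2, a lysyl oxidase that cross-links collagen IV (1.25, adjusted p = 0.0194), Plod2, the lysyl hydroxylase of stable cross-links (1.11, adjusted p = 0.0162), Pcolce, which aids removal of the procollagen end (0.59, adjusted p = 0.0385), Colgalt1, which adds galactose to collagen (0.55, adjusted p = 0.029), and Ppib, which helps the triple helix to fold (0.44, adjusted p = 0.0195). Lox, the main lysyl oxidase, differed by 0.070 (adjusted p = 0.832), and Serpinh1, the collagen chaperone, by 0.14 (adjusted p = 0.624). The median of the list was 0.21, against -0.016 for all probe sets. With ketotifen 1 of 23 rose, Plod2 (1.54, adjusted p = 0.0233), where 13% of all probe sets were called, and in the other 4 comparisons 0 of 23 passed. Without the 3 lungs of largest beta-actin difference 0 of 23 passed in either of these comparisons, and the averages of Pcolce, Colgalt1 and Ppib were 0.36, 0.29 and 0.26. The average without the 3 lungs with heart muscle signal also had 0 of 23. Among fits with 1 lung left out, the call was lost in 9 of 12 for Pcolce, in 6 for Colgalt1 and in 5 for Plod2 with ketotifen.

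Of 9 genes of metalloproteinase activation and collagen uptake, 3 rose and 1 fell on average, where 11% of all probe sets were called higher and 9.92% lower. Plaur, the urokinase receptor that holds plasminogen activation at the cell surface, was 5.71, 3.92 and 5.10 in sham placebo, 6.77, 5.57 and 5.51 in CHF placebo, 5.15, 3.40 and 5.17 in sham ketotifen and 8.64, 8.63 and 8.79 in CHF ketotifen lungs. The 3 CHF ketotifen lungs were far above all others, with 4.11 (adjusted p = 0.00235) against sham ketotifen and 2.73 (adjusted p = 0.0399) against CHF placebo. Ctsk, the collagen-cutting protease of osteoclasts and macrophages, rose by 2.33 on average (adjusted p = 0.00716), and Plau, the urokinase itself, by 1.23 (adjusted p = 0.0241). Reck, a membrane-anchored inhibitor of metalloproteinases, fell by 0.62 on average (adjusted p = 0.0236). With ketotifen, Furin, which activates membrane metalloproteinases, and the uptake receptor Lrp1 rose with surgery too (0.49 and 0.59, adjusted p = 0.0494 and 0.0228), in a comparison that called 13% of all probe sets. With 1 lung left out, Furin lost this call in 11 of 12 fits (adjusted p up to 0.156), Lrp1 in 5, and Plaur its call for ketotifen in CHF in 8. Without the 3 lungs of largest beta-actin difference Plaur alone of the 9 passed on average, and Plau was at 0.72 (adjusted p = 0.252). Without the 3 with heart muscle signal 0 of 9 passed. In the other 3 comparisons (CHF against sham with placebo, ketotifen in sham rats and the interaction) 0 of 9 passed.

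Of 5 collagen receptors, Itga1, the integrin chain that binds collagen IV, fell with CHF under ketotifen. Of all probe sets 13% were called there, 6.61% lower, and 40.1% did not overlap. Itga1 was 9.77, 10.18 and 9.26 in sham ketotifen and 8.72, 8.32 and 8.59 in CHF ketotifen lungs, without overlap. The difference was -1.20 ± 0.25 (SE; adjusted p = 0.0155), and -0.72 (adjusted p = 0.316) without the 3 lungs with heart muscle signal. Without CHF ketotifen lung 2 the call was lost too. In the placebo arm the values were 8.82, 9.49 and 8.98 in sham and 8.93, 9.35 and 9.47 in CHF lungs, with overlap. In the other 5 comparisons 0 of 5 receptors passed, where from 0.0847% to 21% of all probe sets were called.

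A total of 24 member genes had no probe set that passed the filter. For 21 of them all 25 probe sets were under 4 in all 12 lungs. The cartilage collagens Col2a1, Col9a1, Col9a3, Col11a1 and Col11a2 read 2.26 to 3.72, and 0 of 8 cartilage markers on the array passed. The third highest of 12 values decided whether a probe set was kept. Just inside were Col23a1 at 4.28, the dimmer Col18a1 probe set at 4.73 and a dim Col6a2 probe set at 4.77, and just outside were a second Col14a1 probe set at 3.87, Mmp19 at 3.73 and Col11a1 at 3.47.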

How the data were processed

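RNA of 12 whole lungs was measured on Affymetrix arrays. The deposited values are log2 expression per probe set, which the authors made, per the submitters' processing notes, using GCRMA under R 2.5.0 (settings not stated in the sources used here). GCRMA removes a modelled background, so values of about 2 to 4 are near the floor and folds from them are uncertain. Gene symbols came from the platform annotation. The 57 control probe sets were left out, a probe set was kept at 4 or more in at least 3 arrays, and 16536 were fitted in limma 3.58.1 (R 4.3.3) with 4 group means, eBayes with an intensity trend and two-sided tests. The script was tested on simulated data.

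The members, gene lists and tests were chosen with earlier results of these data known. Values in every array are given for members called in any comparison, the 3 of largest difference in each of the 4 comparisons of 2 groups, and Col1a1, Col1a2, Col3a1, Col4a1, Col4a2, Mmp2, Mmp14 and Timp1 to Timp4. Of further lists, genes called are named, with the probe set of highest mean; Lox and Serpinh1 were added after their values were seen. List means also take 1 probe set a gene. Promoter windows for 26 of 35 genes came from RefSeq (GRCr8). Alternatives were the filter, the trend, a further quantile normalization, a replicate block, only the groups compared, CHF ketotifen arrays 1 and 3 averaged (the most alike 2 arrays of a group), and lungs left out. Replicate numbers did not pair the lungs: deviations of same-numbered lungs correlated from -0.347 to 0.263. The number of arrays limits the precision.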

Additional observations from a re-analysis of the deposited data

Results flagged for a closer look

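Mmp2 (1370301_at) was singled out because its surgery difference pointed in opposite directions in the 2 drug arms, with every CHF placebo lung below every sham placebo lung and every CHF ketotifen lung above every sham ketotifen lung. The ketotifen-arm difference exceeded the placebo-arm difference by 1.03 (0.51 against -0.52, log2). The test of this difference, limma's interaction term, gave an adjusted p of 0.12 over all probe sets, so it did not pass.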

How the results depend on the processing

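For 67 results 1370 alternative values were computed, of which 1175 kept their direction and side of the threshold, 161 lost a call, 19 gained one and 15 changed sign. With 1 lung left out at a time, the members called ranged from 0 to 2 for CHF against sham with placebo, 0 to 9 for ketotifen in CHF, 3 to 10 for CHF against sham with ketotifen, 0 to 1 for ketotifen in sham rats, 0 to 3 for the interaction and 5 to 12 for the average surgery effect. Ketotifen in CHF called 0 without CHF ketotifen lung 1 or 3 (0.647% and 0.593% of all probe sets). CHF against sham with ketotifen called 3 without sham ketotifen lung 1 or CHF ketotifen lung 1 or 2 (6.43%, 5.93% and 4.63% of all). The average effect called 5 without sham ketotifen lung 3 or CHF ketotifen lung 1 (15% and 14.8% of all). The highest counts for ketotifen in CHF, for CHF against sham with ketotifen and for the interaction came without CHF placebo lung 1. In that fit 7.37%, 16.8% and 1.83% of all probe sets were called. The 12 came without CHF placebo lung 3, where 21.1% of all were called. The 2 for CHF against sham with placebo came without sham placebo lung 1, where 9.05% of all were called. The 1 for ketotifen in sham rats came in the same fit, where 4.37% of all were called. In the average effect, Timp1, Mmp14, both Col15a1 probe sets and Col6a5 kept their calls in all 12 such fits, while Mmp23 lost its call in 9 and Col13a1 in 6. Ketotifen in CHF (2 members) called 1 with no filter, 1 with the replicate block (Timp1), 0 with only the groups compared, 0 with CHF ketotifen arrays 1 and 3 averaged, 1 without the 3 lungs of largest beta-actin difference and 0 without the 3 with heart muscle signal. Of all probe sets, ketotifen in CHF called 0.49% with no filter, 0.877% with the block and 0.363% with only the groups compared. With CHF ketotifen arrays 1 and 3 averaged it called 0.532% of all. Averaging these arrays gave 4 for CHF against sham with ketotifen (5.76% of all) and 6 for the average effect (15.2% of all). Of 30 calls of named genes 10 were then lost. CHF against sham with ketotifen (5) called 10 with only the groups compared, and 2 and 0 without those sets of lungs. The average (7) called 2 and 1 without them. The 10 with only the groups compared came where 14.5% of all probe sets were called. With the replicate number as a block the other 5 counts were 0, 5, 0, 0 and 7, and the lungs share only a number. The shares of all probe sets called there were 0.163%, 11.5%, 0.0363%, 0.224% and 19.9%.

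Signs changed only for small or widely spread differences. Without the 3 lungs of largest beta-actin difference, Timp3 (1368989_at) gave -1.83 for surgery with placebo and -0.93 for ketotifen in sham rats, and Col3a1 -0.025 on average. With single lungs left out, these Timp3 values ranged from -0.61 to 2.65 and from -1.03 to 2.22, the average of Mmp2 from -0.075 to 0.056, that of Timp3 (1375138_at) from -0.38 to 0.10, Col6a3 (1396055_at) for ketotifen in sham rats from -0.042 to 1.57, and Timp2 (1367823_at) for ketotifen in CHF from -2.15 to 0.075. The cause was not tested. Values near the array's background limit what can be said of Mmp23, Col18a1 and the members not kept.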

Other observations

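Mmp19, a secreted metalloproteinase of macrophages and vessels, stayed under the filter and was not tested. It read 3.73 in CHF placebo lung 1 and 3.94, 3.76 and 3.29 in the CHF ketotifen lungs, and 2.86 to 2.99 in the other 8 lungs. Col10a1, the collagen of growing cartilage, read 8.14 in sham placebo lung 3 and 2.16 to 2.23 in the other 11 lungs, and Matn1, Acan and the other cartilage markers on the array stayed between 2.11 and 3.76 in all lungs. Col9a2 reached 4.78 in sham ketotifen lung 1 and 4.40 in sham placebo lung 2, and Col4a4 reached 4.45 in sham ketotifen lung 3.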
